A study of Mus musculus with 16 samples.

Results

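Genes for the proteins of the cytosolic ribosome were followed in bulk RNA-seq of primary mouse hepatocytes. They were chosen by name alone, as every gene whose symbol is *Rpl* or *Rps* with a number and at most 1 of the letters a, l or x, plus *Rplp0*, *Rplp1*, *Rplp2* and *Rpsa*. This rule found 83 of the 55450 genes in the table, and 79 of them passed the filter on low counts, a mean of 1 CPM (counts scaled to library size) or more over the 16 libraries. The cells came from wild-type C57BL/6J mice, male and 8 to 12 weeks old by the study's methods, so that all groups share 1 genotype. They were cultured overnight in complete medium and were left untreated, given 10 mM itaconate, given a chemically defined lipid mixture at a 10-fold dilution, or given both (lipid + itaconate). Each group had 4 libraries, named by the replicate letters A to D. The sources do not say which animal or day a letter stands for, so the p-values below measure the spread between these libraries only. As a model of the liver the series is limited to isolated hepatocytes in culture at a single overnight time.

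The cytosolic ribosome joins a small subunit, which reads the mRNA, to a large subunit, which forms the peptide bond and carries a flexible stalk that recruits translation factors. Its proteins are made in matched amounts, and most of their mRNAs begin with a pyrimidine tract, the terminal oligopyrimidine (TOP) motif, through which growth signals and the RNA-binding protein Larp1 set their translation and stability. In hepatocytes, which secrete most plasma proteins, ribosomes are numerous, and the cell adjusts ribosome production to nutrients and growth signals.

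Stretches around the start sites of 7 members are shown because members moved together by small amounts, so that a reader can see how alike or unlike the regions in front of them are. They come from RefSeq (GRCm38.p6), which gave 73 windows of 300 bases for 61 of the 83 members, and each stretch runs 5′ to 3′ on the gene's strand from 130 bases before the annotated start to 30 bases from it. Capitals mark CCGGAAG or its reverse complement CTTCCGG, the core bound by ETS factors, or TCTTTC on the gene's strand, a pyrimidine tract. The first 4 belong to members that were lower with the lipid mixture, and the last 3 to members that were not called, each with 1 window and at least 1 of the motifs in it.
Rps2, chr17:24719933-24720092, plus strand: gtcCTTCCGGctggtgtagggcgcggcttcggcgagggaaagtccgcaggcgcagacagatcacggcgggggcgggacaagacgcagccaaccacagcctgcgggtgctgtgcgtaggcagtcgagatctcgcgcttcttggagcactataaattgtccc
Rpl6, chr5:121204371-121204530, plus strand: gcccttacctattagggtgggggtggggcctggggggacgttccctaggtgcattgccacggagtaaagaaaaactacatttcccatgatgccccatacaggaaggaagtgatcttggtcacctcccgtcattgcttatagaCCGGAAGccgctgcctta
Rpl37, chr15:5116483-5116642, plus strand: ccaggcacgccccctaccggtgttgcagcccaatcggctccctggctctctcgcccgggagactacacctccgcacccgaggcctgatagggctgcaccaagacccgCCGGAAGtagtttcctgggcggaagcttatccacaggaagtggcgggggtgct
Rpl18, chr7:45717941-45718100, plus strand: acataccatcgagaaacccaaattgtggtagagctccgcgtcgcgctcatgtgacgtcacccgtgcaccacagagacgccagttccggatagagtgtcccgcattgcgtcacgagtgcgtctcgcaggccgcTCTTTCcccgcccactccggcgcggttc
Rpl41, chr10:128549139-128549298, minus strand: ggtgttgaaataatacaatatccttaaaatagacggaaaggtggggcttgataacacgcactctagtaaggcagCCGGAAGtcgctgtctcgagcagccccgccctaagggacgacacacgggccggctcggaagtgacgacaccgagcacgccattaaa
Rpl5, chr5:107900398-107900557, plus strand: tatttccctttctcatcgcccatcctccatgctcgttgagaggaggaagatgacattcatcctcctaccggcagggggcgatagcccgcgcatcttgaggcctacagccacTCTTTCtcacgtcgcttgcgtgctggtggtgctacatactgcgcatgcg
Rpl31, chr1:39367721-39367880, plus strand: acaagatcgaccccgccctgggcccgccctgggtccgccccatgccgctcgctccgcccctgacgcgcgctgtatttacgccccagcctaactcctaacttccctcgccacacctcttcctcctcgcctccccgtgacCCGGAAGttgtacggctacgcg

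The same letters were counted in the whole 300-base windows, several of which can belong to 1 gene. CCGGAAG on either strand was in 26 of the 73 member windows (35.6%) and in 8.86% of all 32851 RefSeq windows. TCTTTC on the gene's strand was in 20 of 73 (27.4%) and in 11.7% of all windows, and AAGATGGC on either strand, the core bound by Yy1, was in 7 of 73 (9.59%) and in 2.75%. Between members that were lower with the lipid mixture and members that were not called, the shares were 33.3% and 40% for CCGGAAG, 27.3% and 31.4% for TCTTTC, and 6.06% and 14.3% for AAGATGGC, over 33 and 35 windows. The motifs were chosen after the values were known, a match is a description of letters, and no test was made of these shares.

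The libraries held between 22346049 and 35512004 expected counts. The hepatocyte markers were high throughout, with summed levels of 12 genes between 52769 and 79799 CPM, and 4 of the 12 were lower and 1 was higher with lipid. Markers of lymphocytes summed to at most 1.35 CPM, and those of stellate and endothelial cells to at most 25.5 CPM, with 1 endothelial gene lower and 1 higher of 5 tested. The macrophage list summed to 147 to 318 CPM, made up mostly of *Cd68*, which averaged 218 CPM over all libraries. *Adgre1* and *Clec4f* of the same list averaged 1.78 and 2.19 CPM. The cholangiocyte list of 6 genes, made up mostly of *Spp1* and *Sox9*, moved with the lipid mixture, from 599 to 1169 CPM in untreated cells to 335 to 608 CPM. Of its 6 genes, 2 were tested and both were lower, while *Krt7* and *Krt19*, which define cholangiocytes, averaged 0.00459 and 0.224 CPM over all libraries. The macrophage list held 2 lower and 1 higher gene with lipid, of 6 tested. The erythroid list, at 24.6 to 38 CPM and mostly *Alas2*, held 1 lower of 1. In lipid + itaconate, replicate B stood apart from the other libraries of its group. Its part in the counts below is shown by leaving it out, and the part of these lists was not tested.

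The 83 members together made up 2.88%, 2.88%, 2.78% and 2.54% of all counts in untreated replicates A to D, 2.76%, 2.84%, 2.64% and 2.75% with itaconate, 2.81%, 2.77%, 2.52% and 2.57% with lipid, and 2.8%, 2.69%, 2.58% and 2.65% with lipid + itaconate. The means were 2.77% ± 0.161, 2.75% ± 0.0819, 2.67% ± 0.143 and 2.68% ± 0.0934 (SD, n = 4 each), so that the groups overlapped widely. After TMM scaling, which sets libraries to a common level over most genes, the means were 2.82% ± 0.19, 2.84% ± 0.101, 2.56% ± 0.149 and 2.66% ± 0.183 (SD, n = 4 each). The TMM factors themselves moved with the lipid mixture, from 0.957 to 0.997 in untreated cells to 1.03 to 1.05 with lipid. They were 0.949 to 0.979 with itaconate, and 0.995, 0.952, 1.05 and 1.04 in lipid + itaconate replicates A to D. The size of a member's change with lipid thus depends on this scaling. In bulk RNA, fewer cells and less RNA per cell cannot be told apart.

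**Figure D1:**
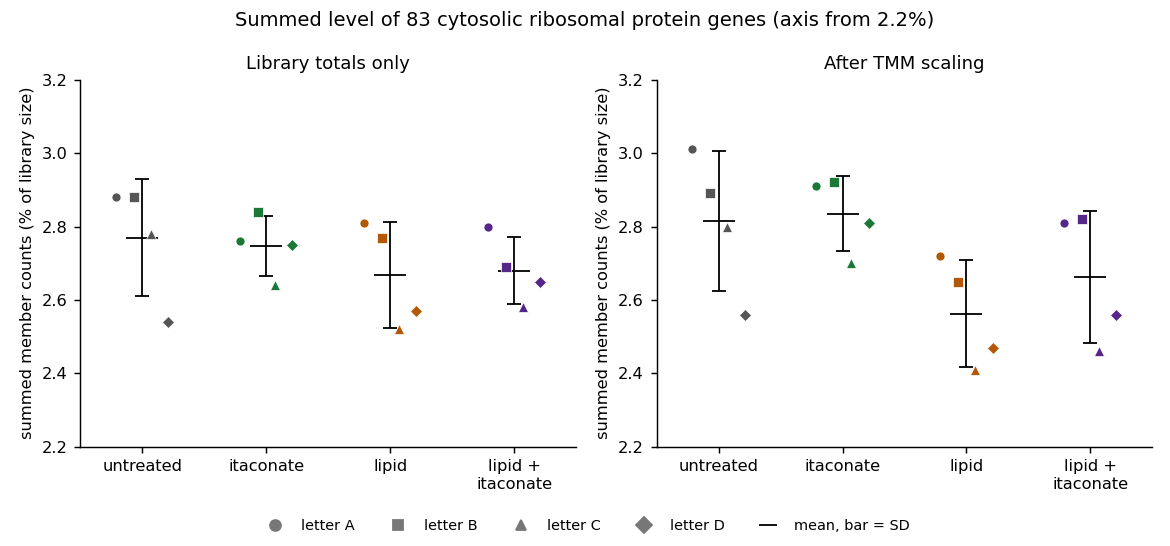
Summed counts of the 83 members as a percentage of library size (vertical axis, from 2.2%), by treatment group, with library totals only (left) and after TMM scaling (right); each marker is a library, its shape the replicate letter, and the lines are the mean and SD of 4. The lipid libraries lie below the untreated ones of the same letter in both panels except for letter D on library totals, where 2.57% lies above 2.54%, and the groups overlap.

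Compared per length in untreated cells, as TPM (counts per base, scaled to a common sum) from the median length of the coding transcripts in GENCODE, the 77 protein-coding members tested lay between 71.6 and 2047 TPM with a median of 755 TPM. The median of all genes tested was 17.4 TPM, and members took up 6.14% of the summed TPM. *Rps2*, a small subunit protein at the entry of the mRNA channel, was highest at 2047 ± 101 TPM (SD, n = 4). It was followed by *Rplp1* of the stalk at 1752 ± 102, *Rpl23a* at the exit tunnel of the large subunit at 1602 ± 47.5, *Rpl10*, which joins the large subunit late, at 1430 ± 39.4, and *Rpl13a* at 1376 ± 124 TPM. *Rpl10* and *Rpl13a* do not differ beyond the spread of *Rpl13a*. Lowest among the coding members were *Rps15a* at 71.6 ± 5.44, *Rps20* at 136 ± 4.2, *Rpl22* at 140 ± 4.95, *Rpl5* at 271 ± 34.9 and *Rpl35* at 317 ± 28 TPM, of which *Rps20* and *Rpl22* do not differ beyond their spread. The order rests on the annotated length. By the merged exons of each gene *Rplp1* ranked 1 and *Rps2* 2, *Rpl23a* stayed at 3, and *Rpl10* and *Rpl13a* ranked 13 and 20. *Rps24* ranked 7 by the median coding transcript and 72 by the longest transcript. *Rps15a* ranked 78 under all 3 lengths tried, but these were 5130, 5179 and 6270 bases, so their agreement is no check on its rank. The lengths of *Rps20* were likewise close to each other, at 3706, 3706 and 4080 bases. Not divided by length, *Rps15a* stood at 211 CPM in untreated cells.

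The other 4 of the 83 members were at or near 0 and were not tested. *Rpl10l* had no count in any library, *Rpl39l* had 1 count in all, and *Rpl3l*, known from muscle, and the processed pseudogene *Rpl32l* stood at 0.0809 CPM or less in every library. Of the tested members, GENCODE lists *Rps4l* as a transcribed processed pseudogene and *Rpl6l* as a processed pseudogene. Sharing of reads was common in the family. An expected count splits a read that fits several genes, and 91.5% of the values of the tested members were not whole (tolerance 0.005), against 14.5% over all genes tested. In 53 of the 79 members, *Rps4x* and *Rpl6* among them, all 16 values were not whole. For *Rpl6l* this held for 15 of 16 values, which makes its level uncertain, and for *Rps4l* for 1 of 16. The 299 genes named as numbered pseudogenes of members held 0.945% of the members' counts, and at most 16.1% for a single member, *Rpl31*. Any pseudogenes under other kinds of name were not counted.

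The lipid mixture was the treatment with which members changed. Against untreated cells, 42 of 79 members were lower and 0 were higher by edgeR's quasi-likelihood test with Benjamini-Hochberg adjustment over all 11675 genes tested (adjusted p under 0.05). Over all genes 23.7% were lower and 23.8% were higher, 47.5% in either direction, while 53.2% of the members were called. At an unadjusted p under 0.05 there were 48 members (53.9% of all genes), and DESeq2 called 46 and limma-trend 42, all lower. The median log2 fold change of the members was −0.12, or −7.82%, against 0.005 over all genes, and 74 of 79 had a negative sign. With library totals in place of TMM, 17 members were lower and 2 were higher, *Rpl10a* and *Rps27l*. The members' median moved to −0.04 while that of all genes moved to 0.085. Shares of all genes called with library totals, DESeq2 and limma-trend are not given here, so these counts do not set the members apart. Relative to the median of all genes, the members' median was −0.12 under both scalings. A change of scaling shifts all genes by nearly the same amount, so this agreement could hardly have failed and is no check.

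The comparison of lipid + itaconate against itaconate alone shares no library with the first. In it 27 of 79 members were lower and 0 were higher (34.2%), where 23.5% of all genes were lower and 23.5% were higher, 47% in either direction. At an unadjusted p under 0.05 there were 36 members (53.8% of all genes), and DESeq2 called 35 and limma-trend 29. The median of the members was −0.08 on the log2 scale (−5.65%), with 68 of 79 negative. The count was smaller under several settings and depended on single libraries, falling to 15 without itaconate replicate D, to 9 with library totals and to 9 without the letter in the model. Without lipid + itaconate replicate B, the library that stood apart, it was 30. Shares of all genes called under these settings, DESeq2 and limma-trend are not given here. Whether the smaller counts are particular to the members cannot be told from them. Members called lower in both comparisons numbered 25, which is 59.5% of the first list and 92.6% of the second, and 35 were called in neither. The overlap over all genes was not counted, so these shares do not set the members apart. Among the 2 called in the second comparison and not in the first was *Rpl12*. The interaction of itaconate and lipid tests whether the lipid change differed between the 2 comparisons. It was called for 0 of 79 members by edgeR, by DESeq2 and by limma-trend, and for 0.00857% of all genes, 1 gene. At an unadjusted p under 0.05 there were 0 members (8.6% of all genes). The estimates leaned one way, with 65 of 79 positive (51.5% of all genes) and a median of 0.046 on the log2 scale against 0.004 over all genes. A positive value means a lipid change that is higher, or less negative, in the presence of itaconate. No test was made over the members.

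**Figure D2:**
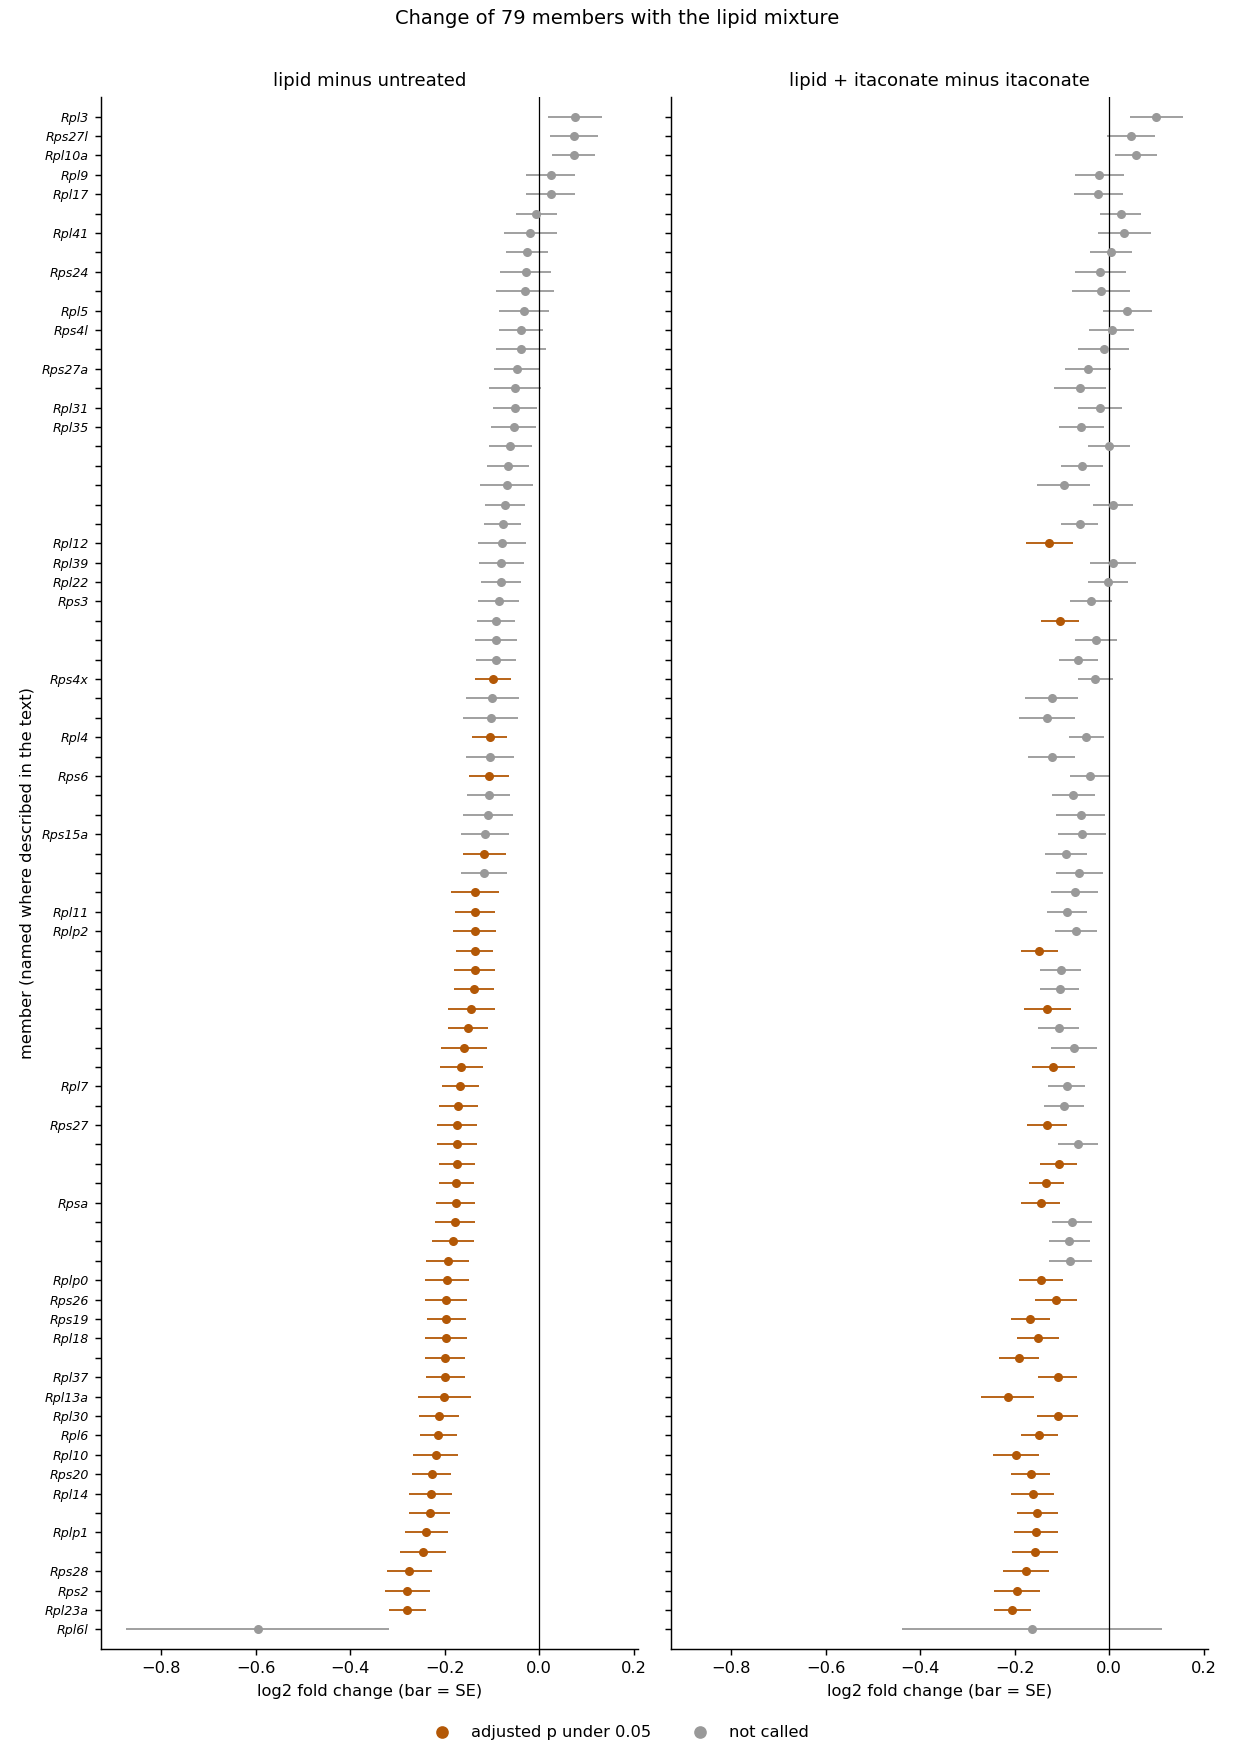
Log2 fold changes of the 79 members tested, lipid minus untreated (left) and lipid + itaconate minus itaconate (right), ordered by the left panel, with names only for members described in the text; points are edgeR estimates, bars their SE, and orange marks an adjusted p under 0.05. On the left 42 members are orange, all left of 0, and on the right 27, all left of 0; *Rpl6l*, with few counts, has the widest bars.

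Among the large subunit members, the pseudogene *Rpl6l* included, 23 of 44 were lower with lipid and 15 of 44 with lipid in the presence of itaconate. These are 52.3% and 34.1%, where 23.7% and 23.5% of all genes were lower, and 47.5% and 47% were called in either direction. The medians of these members were −0.14 and −0.09 on the log2 scale. *Rpl23a* stood at 515, 523, 523 and 497 CPM in untreated replicates A to D, at 519, 555, 496 and 526 CPM with itaconate, at 431, 434, 402 and 430 CPM with lipid and at 462, 473, 439 and 442 CPM with lipid + itaconate. All 8 libraries with lipid lay below all 8 without it. The change was −0.28 ± 0.04 (log2, SE; edgeR adjusted p = 3.85e-05) against untreated cells and −0.21 ± 0.04 (edgeR adjusted p = 0.000617) in the presence of itaconate. *Rpl10* stood at 691, 659, 698 and 666 CPM in untreated cells, at 685, 699, 697 and 704 CPM with itaconate, at 607, 592, 572 and 562 CPM with lipid and at 632, 660, 558 and 583 CPM with both. Its lipid libraries did not overlap with the untreated ones, nor its lipid + itaconate libraries with those of itaconate. It fell by 0.22 ± 0.05 (log2, SE; edgeR adjusted p = 0.00161) and by 0.20 ± 0.05 (edgeR adjusted p = 0.00363). Lipid and untreated libraries did not overlap for 22.8% of the members tested, fewer than the 32.5% of all genes. In the presence of itaconate these shares were 19% and 31.4%. *Rpl14*, another large subunit protein, changed by −14.7% and −10.6%, with edgeR adjusted p of 0.000668 and 0.00815.

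*Rpl13a*, a large subunit protein that can leave the ribosome as part of a translational silencing complex, spread more. It stood at 674, 647, 595 and 522 CPM in untreated cells, at 666, 686, 645 and 665 CPM with itaconate, at 543, 552, 506 and 514 CPM with lipid and at 615, 639, 504 and 545 CPM with both. The untreated and lipid libraries overlapped through untreated replicate D, although each letter was lower with lipid. The changes were −0.20 ± 0.06 (log2, SE; edgeR adjusted p = 0.00775) and −0.22 ± 0.06 (edgeR adjusted p = 0.0053), the second of which was the largest fall of a called member in its comparison.

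*Rpl5* and *Rpl11* travel together with a small ribosomal RNA into the large subunit and, when free, bind Mdm2. *Rpl11* stood at 356, 343, 335 and 303 CPM in untreated cells and at 332, 322, 283 and 280 CPM with lipid, lower in 4 of 4 letters with overlapping groups. Its change was −0.14 ± 0.04 (log2, SE; edgeR adjusted p = 0.0153), and in the presence of itaconate −0.09 ± 0.04 (edgeR adjusted p = 0.092). *Rpl5* stood at 377, 341, 276 and 282 CPM in untreated cells and at 327, 318, 291 and 304 CPM with lipid, lower in 2 letters and higher in 2, with a change of −0.03 ± 0.05 (log2, SE; edgeR adjusted p = 0.636).

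Some large subunit members had a change with lipid that was near 0 or positive. *Rpl3*, which lies close to the peptidyl transferase centre, stood at 510, 447, 363 and 377 CPM in untreated cells, at 479, 452, 306 and 378 CPM with itaconate, at 517, 450, 385 and 428 CPM with lipid and at 496, 430, 398 and 390 CPM with both. Letter A was highest in every group, and the spread between letters was larger than the difference between groups. Its change with lipid was 0.08 ± 0.06 (log2, SE; edgeR adjusted p = 0.296), with higher values in 4 of 4 letters, and in the presence of itaconate 0.10 ± 0.06 (edgeR adjusted p = 0.166). *Rpl10a* stood at 383, 357, 300 and 280 CPM in untreated cells and at 408, 355, 307 and 318 CPM with lipid, a change of 0.07 ± 0.05 (log2, SE; edgeR adjusted p = 0.194). The other 3 of the 5 members with a positive estimate were *Rpl9*, *Rpl17* and *Rps27l*. *Rpl41*, the shortest protein of the large subunit, and *Rpl39*, a short protein of the exit tunnel, had changes of −0.02 ± 0.06 and −0.08 ± 0.05 (log2, SE; edgeR adjusted p = 0.801 and 0.188). *Rpl22*, whose loss many cells tolerate, changed by −0.08 ± 0.04 (log2, SE; edgeR adjusted p = 0.122).

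All 3 genes of the stalk were lower with lipid, where 23.7% of all genes were. *Rplp0*, its base, stood at 857, 827, 791 and 722 CPM in untreated cells, at 814, 846, 753 and 801 CPM with itaconate, at 731, 723, 655 and 682 CPM with lipid and at 782, 790, 655 and 690 CPM with both. *Rplp1* stood at 539, 518, 503 and 448 CPM, at 502, 513, 462 and 486 CPM, at 477, 440, 387 and 401 CPM and at 477, 452, 412 and 424 CPM in the same groups. The groups of both genes overlapped, while each letter was lower with lipid whether itaconate was present or not. *Rplp0* changed by −0.20 ± 0.05 (log2, SE; edgeR adjusted p = 0.00263) and, in the presence of itaconate, by −0.14 ± 0.05 (edgeR adjusted p = 0.0177). For *Rplp1* the changes were −0.24 ± 0.05 (edgeR adjusted p = 0.000565) and −0.16 ± 0.05 (edgeR adjusted p = 0.0119). *Rplp2*, which pairs with *Rplp1*, changed by −0.14 ± 0.05 (edgeR adjusted p = 0.0216) against untreated cells and by −0.07 ± 0.05 (edgeR adjusted p = 0.219) in the presence of itaconate.

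Among the small subunit members, the pseudogene *Rps4l* included, 16 of 32 were lower with lipid and 10 of 32 with lipid in the presence of itaconate. These are 50% and 31.2%, where 23.7% and 23.5% of all genes were lower, and 47.5% and 47% were called in either direction. The medians of these members were −0.10 and −0.07 on the log2 scale. *Rps2* stood at 1181, 1177, 1238 and 1093 CPM in untreated cells, at 1176, 1191, 1181 and 1175 CPM with itaconate, at 973, 1001, 944 and 943 CPM with lipid and at 1091, 1104, 962 and 974 CPM with both. Its lipid libraries lay below all untreated ones, and those with both agents below all itaconate ones. The changes were −0.28 ± 0.05 (log2, SE; edgeR adjusted p = 0.000216) and −0.20 ± 0.05 (edgeR adjusted p = 0.00367). *Rps28*, which lies where the mRNA leaves the subunit, stood at 150, 144, 154 and 139 CPM in untreated cells, at 142, 146, 145 and 149 CPM with itaconate, at 130, 122, 119 and 115 CPM with lipid and at 130, 139, 121 and 124 CPM with both. The groups with and without lipid did not overlap in either comparison, at −0.28 ± 0.05 (log2, SE; edgeR adjusted p = 0.000251) and −0.18 ± 0.05 (edgeR adjusted p = 0.00707).

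*Rps6*, which S6 kinases phosphorylate downstream of mTOR, stood at 624, 574, 575 and 536 CPM in untreated cells and at 560, 557, 510 and 519 CPM with lipid. Every letter was lower, the groups overlapped, and the change of −0.11 ± 0.04 (log2, SE) lay just inside the threshold (edgeR adjusted p = 0.0465). In the presence of itaconate it was −0.04 ± 0.04 (edgeR adjusted p = 0.441). *Rpsa*, also known as the laminin receptor, was lower in both comparisons, at −11.5% and −9.59% (edgeR adjusted p = 0.00254 and 0.00924). *Rps3*, at the mRNA entry site, had estimates of −0.09 ± 0.04 and −0.04 ± 0.04 (log2, SE; edgeR adjusted p = 0.122 and 0.502). For *Rps27a*, which is made as a fusion with ubiquitin, they were −0.05 ± 0.05 and −0.05 ± 0.05 (log2, SE; edgeR adjusted p = 0.428 and 0.462).

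**Figure D3:**
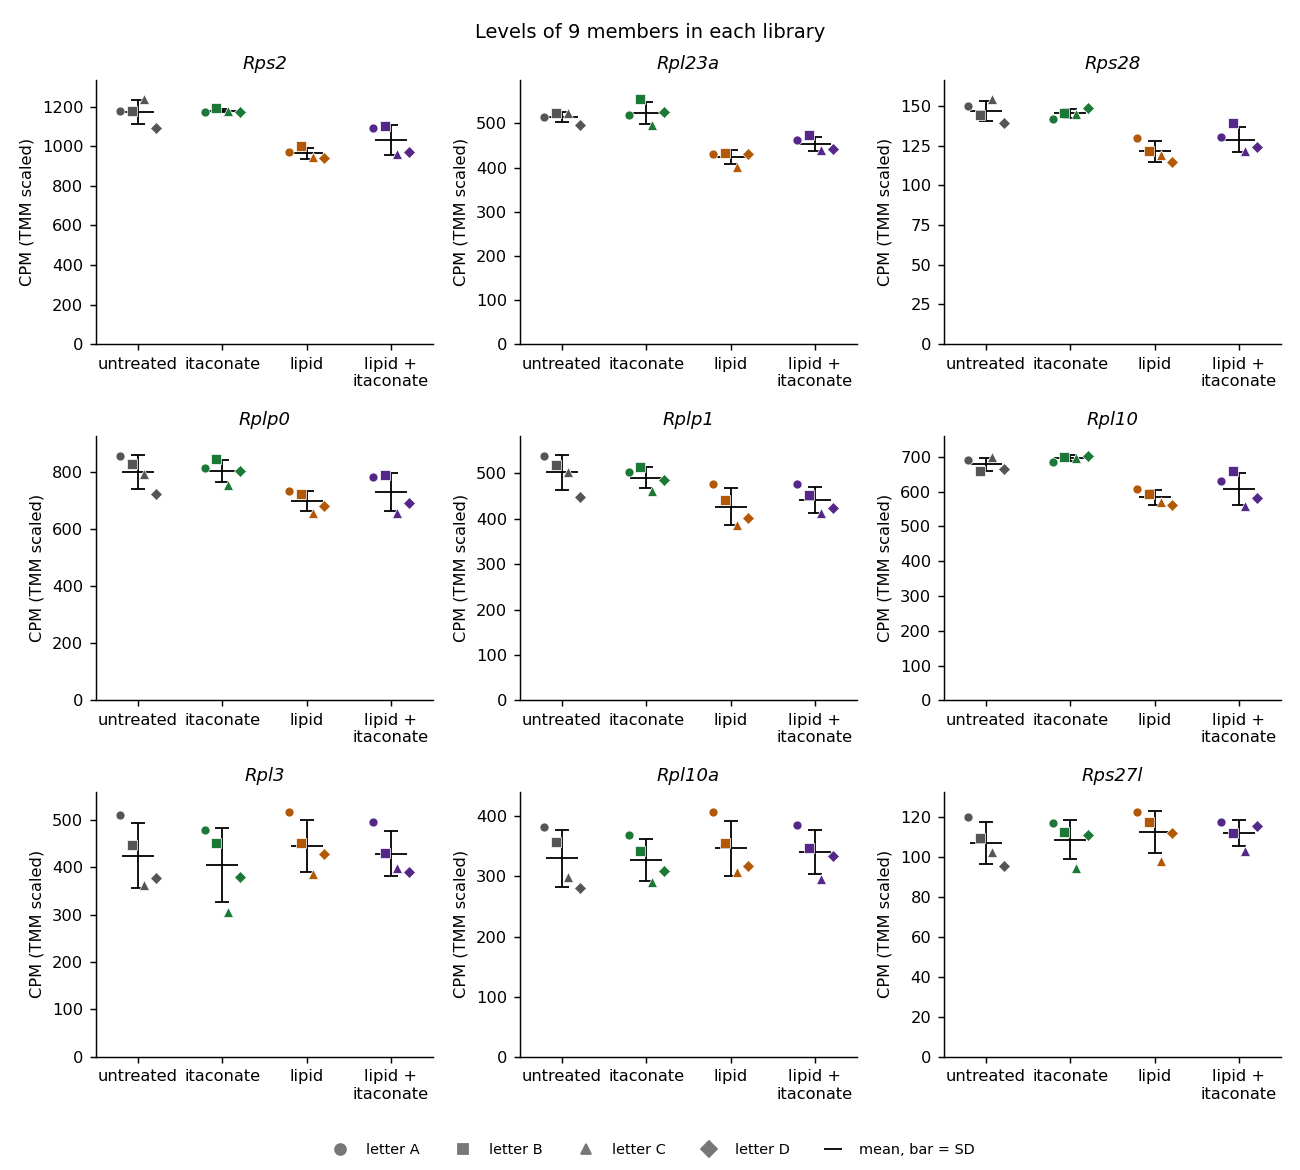
CPM after TMM scaling (vertical axes from 0) of 9 members in each of the 16 libraries, by treatment group; markers are libraries, their shape the replicate letter, and the lines are the mean and SD of 4. *Rps2*, *Rpl23a*, *Rps28* and *Rpl10* have lipid libraries below every untreated one, *Rplp0* and *Rplp1* overlap through untreated replicate D, and *Rpl3*, *Rpl10a* and *Rps27l* show no lower lipid group. Lipid and untreated libraries do not overlap for 22.8% of the members tested and 32.5% of all genes.

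The paralogs *Rps27* and *Rps27l*, whose proteins take the same place in the small subunit and of which *Rps27l* is a target of p53, had estimates of opposite sign with lipid. *Rps27* stood at 240, 218, 227 and 213 CPM in untreated cells and at 215, 198, 191 and 192 CPM with lipid, and *Rps27l* at 120, 109, 103 and 95.2 CPM and at 123, 117, 98.1 and 112 CPM. *Rps27* was lower in 4 of 4 letters (−0.17 ± 0.04, log2, SE; edgeR adjusted p = 0.00305) and *Rps27l* higher in 3 of 4 (0.07 ± 0.05, log2, SE; edgeR adjusted p = 0.25). The ratio of *Rps27l* to *Rps27* counts was 0.499, 0.502, 0.453 and 0.447 in untreated cells, 0.484, 0.496, 0.4 and 0.46 with itaconate, 0.57, 0.593, 0.515 and 0.581 with lipid and 0.523, 0.498, 0.497 and 0.558 with both. It was higher with lipid in 4 of 4 letters in both comparisons, by 0.25 and by 0.18 on the log2 scale. Each had a two-sided exact permutation p of 0.0286, the smallest that 70 splits of 8 libraries allow, and 0.114 after Benjamini-Hochberg adjustment over 8 ratio tests, which is above the threshold. For *Rps4l* to *Rps4x* the exact permutation p was 0.457 or more in all 4 comparisons, from splits that ignore the letter. Within letters this ratio was higher in 4 of 4 with lipid (by 0.06 on the log2 scale) and in 2 of 4 with lipid in the presence of itaconate, and it was higher in 0 of 4 with itaconate, whether without lipid (−0.09) or with it (−0.11).

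Itaconate was compared with its control without and with lipid, and the first of these shares the untreated libraries with the lipid comparison above. Against untreated cells edgeR called 0 of 79 members (of all genes 2.95% were lower and 1.96% higher, 4.91% in all), DESeq2 and limma-trend 0, and 2 members had an unadjusted p under 0.05 (21.3% of all genes). These were *Rps4l*, with 38.7, 36.9, 50.5 and 36.4 CPM in untreated cells and 32.7, 35.9, 44.7 and 35.7 CPM with itaconate, and *Rpl13a*, whose values are given above. The estimates were −0.12 ± 0.05 for *Rps4l* and 0.13 ± 0.06 for *Rpl13a* (log2, SE; edgeR adjusted p = 0.158 and 0.186). The median of the members was 0.01 on the log2 scale, with 48 of 79 positive, and the protein-coding members lay between −0.08 and 0.13. Over the letters, 2 members were lower in all 4 (19% of all genes) and 1, *Rps27*, was higher in all 4 (18.3% of all genes). No member had untreated and itaconate libraries that did not overlap, against 7.53% of all genes.

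In lipid-treated cells itaconate again gave 0 of 79 members called by edgeR (of all genes 1.26% were lower and 1.32% higher, 2.58% in all), 0 by DESeq2 and 0 by limma-trend, with 3, *Rps27*, *Rpl7* and *Rpl23a*, at an unadjusted p under 0.05 (17.3% of all genes). The estimates leaned one way, with 75 of 79 positive and a median of 0.05 on the log2 scale (3.7%), from −0.08 to 0.17. The members higher in all 4 letters numbered 36 (45.6%), against 10.5% of all genes, and *Rpl7*, *Rpl14* and *Rpl23a* had groups that did not overlap (3.8% of members and 5.82% of all genes). *Rps27* had the smallest p, at 215, 198, 191 and 192 CPM with lipid and 225, 225, 207 and 207 CPM with lipid + itaconate, a change of 0.12 ± 0.04 (log2, SE; edgeR adjusted p = 0.149). With library totals in place of TMM the members' median was 0.003 while that of all genes was −0.05, so the lean is one relative to other genes. The same libraries of lipid-treated cells enter the lipid comparison, so these estimates and those of the lipid comparison are not independent.

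Members moved together from letter to letter within a group. In untreated cells 61 of the 79 tested members were highest in replicate A and 71 were lowest in replicate D. With lipid 64 were highest in A and 61 lowest in C, with itaconate 60 were lowest in C, and with lipid + itaconate 69 were lowest in C and 44 highest in B. The median coefficient of variation of a member over the 4 libraries was 7.68% in untreated cells, 3.92% with itaconate, 5.84% with lipid and 7.28% with both. *Rpl4* had the lowest value in untreated cells, 1.76%, and *Rpl6l*, at 0.922 to 2.85 CPM over all libraries, the highest, 40.8%. Because the letters enter the model, the tests compare treatments within letters. The count against untreated cells ranged from 31 without untreated replicate C to 54 without untreated replicate D. Shares of all genes called in these fits are not given here.

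The members called lower with lipid had a median of 381 CPM in untreated cells (147 to 1172) and the others 270 CPM (1.8 to 492). The median SE of their log2 fold changes was 0.04 and 0.05. Of the 42, all had a negative estimate in the presence of itaconate as well, and of the other 37, 26 did. A set of 17 was lower against untreated cells under every one of the 27 settings tried, among them *Rpl6*, *Rpl10*, *Rpl14*, *Rpl18*, *Rpl23a*, *Rpl30* and *Rpl37* of the large subunit, *Rplp0* and *Rplp1* of the stalk, and *Rps2*, *Rps19*, *Rps20*, *Rps26* and *Rps28* of the small subunit. In the presence of itaconate 7 were, among them *Rpl10*, *Rpl14*, *Rpl23a*, *Rps2*, *Rps20* and *Rps28*. Signs shared by the comparisons and calls under every setting were not counted over all genes, so they do not set the members apart.

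Other genes of translation were counted from lists drawn up from general knowledge of these pathways. Of 8 ribosomal proteins whose names fall outside the rule, 4 were lower (50%) and 1 was higher (12.5%) with lipid, where 23.7% and 23.8% of all genes were. *Rps3a1*, of the small subunit, was lower at −0.20 ± 0.04 (log2, SE; edgeR adjusted p = 0.000976). *Rpl7l1*, a paralog of *Rpl7*, was higher at 0.10 ± 0.04 (edgeR adjusted p = 0.0479). Of 20 mRNAs of the TOP class that do not code for ribosomal proteins, 11 were lower (55%, against 23.7% of all genes) and 0 were higher, with a median of −0.14 on the log2 scale. Among them *Eef2*, which moves the ribosome along the mRNA, fell by 0.21 ± 0.04 (edgeR adjusted p = 0.00104), *Eef1a1*, which brings in the charged tRNA, by 0.18 ± 0.05 (edgeR adjusted p = 0.0067), and *Nap1l1*, a histone chaperone, by 0.24 ± 0.05 (edgeR adjusted p = 0.00101). In the presence of itaconate 9 of 20 were lower (45%, against 23.5% of all genes) and 0 were higher. *Pabpc1*, which binds poly(A) tails, was not called in either comparison, at −0.10 ± 0.04 and −0.06 ± 0.04 (edgeR adjusted p = 0.0573 and 0.268).

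Genes of ribosome biogenesis were called in both directions, 10 lower and 8 higher of 57 with lipid and 13 lower and 9 higher in the presence of itaconate, with medians of 0.001 and −0.03 on the log2 scale. These are 17.5% lower and 14% higher against untreated cells, where all genes had 23.7% and 23.8%, and 22.8% and 15.8% in the presence of itaconate, where all genes had 23.5% in each direction. *Dkc1*, the pseudouridine synthase of ribosomal RNA, was lower at −0.32 ± 0.05 (log2, SE; edgeR adjusted p = 0.00013) and *Riok2*, a kinase of small subunit maturation, higher at 0.37 ± 0.07 (edgeR adjusted p = 0.000362). *Polr1a*, the large subunit of RNA polymerase I, was not called, at 0.11 ± 0.06 (edgeR adjusted p = 0.143). In lipid-treated cells *Riok1*, a related kinase, was lower with itaconate by 0.47 ± 0.08 on the log2 scale (edgeR adjusted p = 0.00543), the 1 gene of this list called in an itaconate comparison.

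Of 19 tested regulators of ribosomal protein mRNAs, 9 were lower (47.4%, against 23.7% of all genes) and 4 were higher (21.1%, against 23.8%) with lipid. *Myc*, a transcription factor that drives ribosome production, was lower at −0.34 ± 0.05 (log2, SE; edgeR adjusted p = 6.53e-05) and, in the presence of itaconate, at −0.50 ± 0.05 (edgeR adjusted p = 2.37e-06). *Larp1*, the TOP-binding protein, was lower at −0.12 ± 0.04 (edgeR adjusted p = 0.0173) and −0.20 ± 0.04 (edgeR adjusted p = 0.000486). *Mtor* itself was at 0.02 ± 0.05 (edgeR adjusted p = 0.795) and −0.19 ± 0.05 (edgeR adjusted p = 0.00343), and the interaction was not called (edgeR adjusted p = 0.371). *Akt1s1* and *Mlst8*, partners of mTOR, were lower, the first at −0.43 ± 0.05 (edgeR adjusted p = 1.16e-05) and the second at −0.56 ± 0.10 (edgeR adjusted p = 0.000227). *Eif4ebp3*, an inhibitor of cap-dependent translation, was higher at 0.74 ± 0.13 (edgeR adjusted p = 0.000179). Its level was low, at 2.53 CPM in untreated cells and 4.22 CPM with lipid, and *Mlst8* stood at 9.95 and 6.74 CPM. Itaconate against untreated cells gave 1 call, *Akt1s1* at 0.20 ± 0.05 (edgeR adjusted p = 0.0347).

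Of 12 genes listed for p53, which are targets of it and its own gene *Trp53*, 5 were lower (41.7%, against 23.7% of all genes) and 2 were higher (16.7%, against 23.8%) with lipid. *Mdm2*, the inhibitor of p53 that free Rpl5 and Rpl11 bind, was lower at −0.21 ± 0.06 (log2, SE; edgeR adjusted p = 0.0139), *Bax*, a pore-forming death protein, at −0.49 ± 0.05 (edgeR adjusted p = 2.39e-06), and *Cdkn1a*, the cell-cycle inhibitor p21, was higher at 0.19 ± 0.05 (edgeR adjusted p = 0.0101). The median of the list was −0.03 on the log2 scale.

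The mitochondrial ribosome, a separate machine whose proteins are also encoded in the nucleus, had the opposite balance of calls. Of 79 tested genes named *Mrpl* or *Mrps* with a number, 1 of them a pseudogene, 4 were lower and 30 were higher with lipid, and 4 were lower and 34 were higher in the presence of itaconate, with medians of 0.09 and 0.12 on the log2 scale. The shares lower were 5.06% in both comparisons, where all genes had 23.7% and 23.5%, and the shares higher 38% and 43%, where all genes had 23.8% and 23.5%. *Mrpl34* was higher at 0.42 ± 0.06 (log2, SE; edgeR adjusted p = 2.63e-05) and *Mrpl54* lower at −0.48 ± 0.09 (edgeR adjusted p = 0.000494), both of the large mitochondrial subunit. These counts stand beside those of the cytosolic genes without a test of the difference between the lists. Itaconate against untreated cells gave 3 lower mitochondrial members (3.8%, near the 2.95% of all genes) and 0 higher, with *Mrps2* at −0.33 ± 0.06 (edgeR adjusted p = 0.0046).

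**Figure D4:**
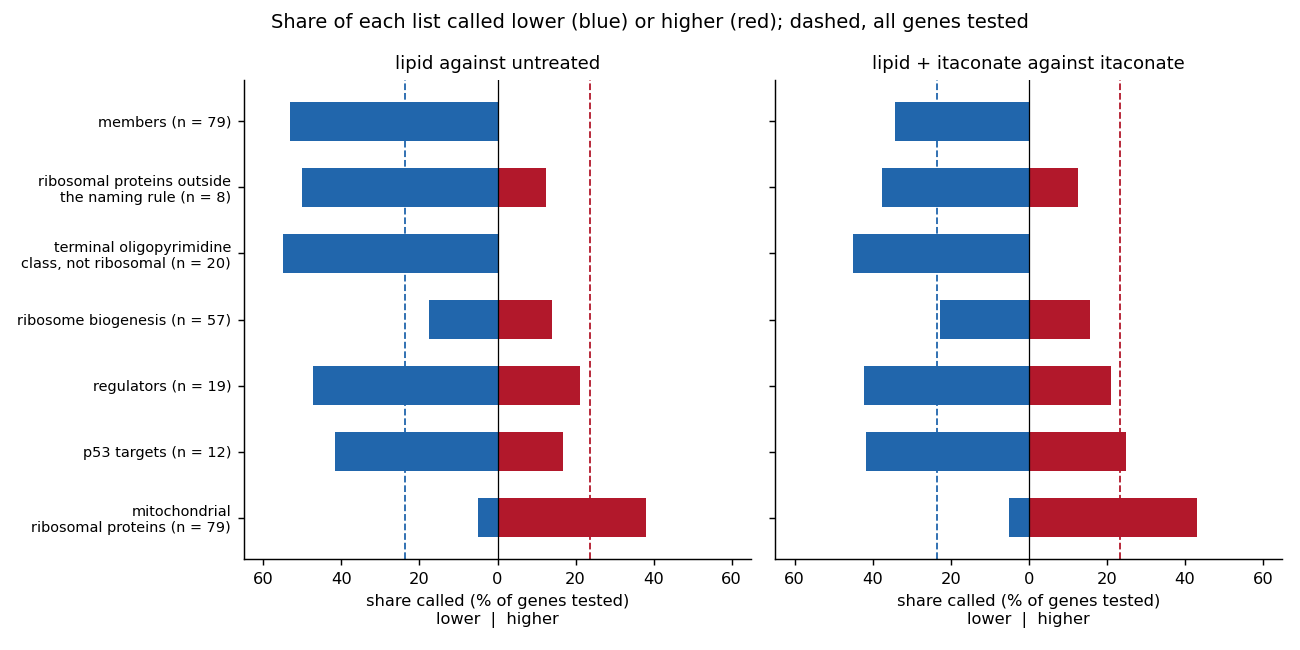
Share of the genes tested in each list that were called lower (blue, to the left) or higher (red, to the right) at an adjusted p under 0.05, in percent, for lipid against untreated (left panel) and lipid + itaconate against itaconate (right panel); dashed lines are the shares over all genes tested, n the genes tested. The cytosolic members have 53.2% and 34.2% lower and none higher, and the mitochondrial ribosomal proteins 38% and 43% higher.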

How the data were processed

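The deposited values are gene-level expected counts that the authors made with RSEM 1.3.1, after trimming with Cutadapt 1.18 and aligning to mm10 with STAR 2.7.0f, with GENCODE annotation; the kit was stranded. They carry no normalization. The members and lists were chosen with earlier results of these data known. Counts were rounded to whole numbers. Genes averaging 1 CPM or more across all 16 libraries entered the tests (11675), and edgeR 4.0.16 in R 4.3.3 fitted 1 quasi-likelihood model with treatment and replicate letter after TMM, with Benjamini-Hochberg adjustment over all genes tested and a threshold of 0.05. The 24 correlations between same-letter deviations from the group means were 0.144 to 0.469, so the letter was kept. Named members were the 5 largest falls and rises called in each comparison, fixed roles and paralogs, and the 5 highest and lowest per length; *Rpl9*, *Rpl17*, *Rpl12* and others singled out by a count were named with their values known. Some genes that the rule would name are not reported here. The length used for TPM was chosen after annotated lengths were seen. Alternatives were no letter term, RLE, TMM without members, library totals, filterByExpr, no filter, 8 libraries only, DESeq2 1.42.0, limma-trend (limma 3.58.1), pseudogene counts added, and each library left out. The scripts were tested on simulated data. Gene types and lengths are from GENCODE M21, and the printed positions from RefSeq (GRCm38.p6).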

Additional observations from a re-analysis of the deposited data

Results flagged for a closer look

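In groups of 4 libraries, the gap of the highest or lowest library to the nearest other was compared with Dixon's 95% critical value for 23 members and for summed levels, 100 groups in all, of which chance flags about 1 in 20, and 3 were flagged. *Rpl23a* with lipid was 402 CPM in replicate C and 430 to 434 CPM in the others. *Rps4l* was 50.5 CPM in untreated replicate C, with 36.4 to 38.7 CPM in the others, and 47.6 CPM with lipid in replicate C, with 36 to 37.3 CPM in the others. Replicate C was also its highest library with itaconate, at 44.7 CPM, and with lipid + itaconate, at 44 CPM, though not flagged there. The high values of *Rps4l* thus go with the letter C in every group. Of the 16 values of *Rps4l*, 1 was not a whole number, the mark of a read split between genes, while all 16 of *Rps4x* were not whole. No member had a called interaction of itaconate and lipid.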

How the results depend on the processing

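Against untreated cells the count of members lower with lipid was 28 without the replicate block (the letter as a model term), 31 without a filter, 44 with RLE, 46 with DESeq2, 42 with limma-trend and 31 to 54 with 1 library left out (31 without untreated replicate C, 54 without untreated replicate D). With library totals only it was 19 in all, and the median −0.037. Shares of all genes called are not given for the settings in this section. Whether a change in count is particular to the members cannot be told from it. In the presence of itaconate the count was 9 without the replicate block, 9 with library totals only, 17 without a filter, 17 with the 8 libraries compared and 15 to 31 with 1 library left out (15 without itaconate replicate D); the cause was not tested, beyond the fewer samples in the last settings. For itaconate in lipid-treated cells the median was 0.003 with library totals only and 0.036 to 0.073 with 1 library left out (0.036 without lipid + itaconate replicate B, 0.073 without its replicate C), and 0 members were called under any of the 27 settings, as for itaconate against untreated cells and the interaction. The median for itaconate against untreated cells, 0.01, ran from −0.023 to 0.041 and was negative without untreated replicate D, without itaconate replicate D and with library totals only. Of the named members' changes with lipid over these settings, 72 lost and 8 gained significance, 36 below the threshold in both changed sign, and 1288 kept their side and sign; none called changed sign. For the itaconate comparisons 60 uncalled estimates changed sign, and 47 for the interaction. Levels per length moved with the length used. Members near 1 CPM, such as *Rpl6l*, have standard errors several times those of the others.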
